A study of Homo sapiens with 6 samples.

Results

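PAX2, PAX5, PAX6, PAX8, HMX2, HMX3, SIX4, EYA1 and FOXD1 are developmental regulators, and all but EYA1 are DNA-binding transcription factors. They are 9 of the 62703 genes listed in the expression table. They were chosen by name from the results of the comparison described here, DKK1-SE-/- against DKK1-SE+/+ cells, so their values and differences are a description and carry no test.

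The RNA came from PANC-1, an established line of human pancreatic ductal carcinoma, and the question was what the loss of a super-enhancer does to gene expression. DKK1-SE is a super-enhancer on chromosome 10, and its component enhancer e1 was deleted with CRISPR/Cas9. DKK1-SE-/- cells carry this deletion on both alleles and were a single clone, while DKK1-SE+/+ cells are the wild-type PANC-1 group, and both were grown in DMEM with fetal bovine serum. Stranded mRNA libraries of 3 biological replicates of each group were sequenced. Since 1 clone represents the deletion, an effect of the deletion and a difference between this clone and the other cells cannot be told apart. The labels call the libraries biological replicates without saying whether each came from a separate culture, and the p-values cover the spread between them only.

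Total expected counts were 21822314, 16475810 and 18803154 in DKK1-SE+/+ replicates 1, 2 and 3. They were 17359835, 20098086 and 17804764 in DKK1-SE-/- replicates 1, 2 and 3. An expected count is the estimated number of reads of a gene, and TPM also divides by gene length, so levels are compared between genes in TPM only. Libraries of the same group were more alike than libraries of different groups, with r of log2(TPM + 1) over all genes (Pearson) at 0.983 or more within a group and between 0.973 and 0.980 across groups.

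PAX proteins bind DNA through a paired domain and set up organs early in the embryo: PAX2 and PAX8 act in the kidney and inner ear, PAX8 also in the thyroid, PAX5 in B lymphocytes, and PAX6 in the eye and the endocrine pancreas. HMX2 and HMX3 are homeobox factors of the inner ear and the hypothalamus. SIX4 is a homeobox factor that works with EYA co-activators and DACH cofactors, and FOXD1 is a forkhead factor of the kidney stroma and the retina. In the embryonic kidney several of these genes are active together with WT1, OSR1, SALL1 and LHX1.

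The gene beside the edited super-enhancer was examined first. DKK1, which encodes a secreted inhibitor of Wnt signalling, was at 229, 246 and 199 TPM in the DKK1-SE+/+ libraries and at 66.8, 79.8 and 82.7 TPM in the DKK1-SE-/- libraries. All 3 edited libraries lay below all 3 wild-type libraries. The log2 fold change of DKK1 was -1.45 (SE 0.11) with an adjusted p of 6.16e-06 in edgeR's quasi-likelihood test with Benjamini-Hochberg adjustment. The two-sided exact permutation test of TPM gave p = 0.1, the smallest value that 3 libraries against 3 allow. PAX2, HMX3 and HMX2 are also on chromosome 10, but their starts are 48.4, 70.8 and 70.8 Mb from that of DKK1.

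The libraries carried the markers of a keratin-positive, strongly mesenchymal carcinoma line. Mean levels in DKK1-SE+/+ cells were 957 TPM for KRT8, 856 TPM for KRT18 and 4159 TPM for VIM, whereas the epithelial adhesion genes EPCAM (4.17 TPM) and CDH1 (1.59 TPM) were low. The ductal keratin KRT19 rose in DKK1-SE-/- cells, from 53.9 ± 5.79 to 172 ± 25.9 TPM (SD, n = 3), and was the only called gene of the 8 markers by edgeR (log2 fold change 1.83, SE 0.16, adjusted p 1.40e-05). VIM, the most abundant of them, had a log2 fold change of -0.47 (SE 0.11). The others were inside the fold limit as well, at 0.86 for KRT8, 0.67 for KRT18, 0.47 for KRT7, -0.39 for SOX9, -0.43 for CDH1 and -0.67 for EPCAM. Being inside the limit does not mean unchanged: 7 of the 8 markers had an unadjusted p under 0.05 in edgeR, as did 7335 of all 15179 tested genes.

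Calls required an unadjusted p under 0.05 in edgeR together with a log2 fold change of 1.2 or more in either direction. Of the 15179 genes that passed the filter on low counts, 753 (4.96%) were called higher and 561 (3.70%) lower in DKK1-SE-/- cells. With limma on log2(TPM + 0.1) the split was 544 higher and 691 lower, and without DKK1-SE-/- replicate 3 the number called lower was 846. Of the 9 genes chosen from this comparison, 5 passed the filter (PAX2, PAX5, HMX3, SIX4 and FOXD1). PAX2 and HMX3 were past both limits downwards and PAX5 upwards, which follows from how they were chosen. SIX4 and FOXD1 were inside the fold limit. PAX6, PAX8, HMX2 and EYA1 had too few counts to be tested and are described by their counts. In bulk RNA, fewer cells with a transcript and less transcript per cell cannot be told apart.

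PAX2 (ENSG00000075891, chr10:100735396-100829944, plus strand, hg38), a factor of the early kidney duct, all but disappeared from the edited libraries. It had 262, 209 and 273 counts in the DKK1-SE+/+ libraries and 5, 2 and 4 counts in the DKK1-SE-/- libraries. Every wild-type library was far above every edited one. The log2 fold change was -5.92 (SE 0.29), and the ratio of the summed counts was 62.3-fold with an exact 95% interval of 34.6 to 125, which covers counting error only. In TPM the values were 5.05, 6.60 and 6.55 against 0.68, 0.03 and 0.21. The TPM values of the edited libraries spread far more than their counts, since TPM per CPM, the count scaled to library size with TMM factors, ran from 0.294 to 2.21 there against 0.436 to 0.530 in the wild-type libraries. For that reason the fold is given on counts. Fits with limma gave -4.28 on log2(TPM + 0.1) and -2.46 on log2(TPM + 1), and these change the unit, the method and the added constant together.

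The RefSeq table lists 2 promoter entries for PAX2 (GRCh38.p14), both on the plus strand, and both are shown because the expression table does not say which start was lost. CG dinucleotides are in capitals. The upstream entry, chr10:100735146-100735445, holds 14 of them and the downstream entry, chr10:100745332-100745631, holds 19, where the median of all 35116 listed promoters of 300 bases is 14 (quartiles 4 and 28).
PAX2 upstream: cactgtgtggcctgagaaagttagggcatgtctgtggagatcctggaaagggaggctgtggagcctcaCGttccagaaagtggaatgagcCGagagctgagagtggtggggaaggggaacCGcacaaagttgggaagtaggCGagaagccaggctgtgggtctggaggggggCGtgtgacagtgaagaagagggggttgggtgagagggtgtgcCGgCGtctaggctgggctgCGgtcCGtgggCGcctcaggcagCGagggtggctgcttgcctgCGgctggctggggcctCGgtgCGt
PAX2 downstream: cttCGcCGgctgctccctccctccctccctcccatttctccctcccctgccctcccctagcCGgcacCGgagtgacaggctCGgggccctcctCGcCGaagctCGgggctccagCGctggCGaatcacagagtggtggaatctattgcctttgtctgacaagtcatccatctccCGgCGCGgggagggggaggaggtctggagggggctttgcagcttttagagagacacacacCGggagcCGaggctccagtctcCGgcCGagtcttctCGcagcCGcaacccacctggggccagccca
Neither strand of either entry holds the AP-1 motif TGANTCA, which is in 7.71% of all listed promoters, or the forkhead motif TGTTTAC, which is in 3.42%.

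PAX5 (ENSG00000196092, chr9:36833269-37034268, minus strand), the factor that commits lymphoid precursors to the B lineage, went the other way. It had 39, 32 and 31 counts in DKK1-SE+/+ libraries and 92, 96 and 75 counts in DKK1-SE-/- libraries. The groups did not overlap in counts. The log2 fold change was 1.48 (SE 0.23). In TPM they did overlap, with 0.27, 0.78 and 0.26 against 0.76, 1.04 and 0.65, because wild-type replicate 2 was above edited replicates 1 and 3. On log2(TPM + 0.1) and log2(TPM + 1) the differences were 0.88 and 0.35, both inside the fold limit. The overlapping genes MIR4476, MIR4540, ENSG00000258885 and ENSG00000250850 were at 0 in all 6 libraries.

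PAX6 (ENSG00000007372, chr11:31784779-31817961, minus strand), the eye and islet factor, was counted almost only in edited cells. Expected counts were 0, 0 and 1.30 in the wild-type libraries and 7, 11 and 12.4 in the edited ones. All 3 edited libraries were higher, but on few reads. The ratio of the summed counts, rounded to whole counts, was 32.6-fold with an exact 95% interval of 5.42 to 1330 for counting error only. It was 20.0-fold without DKK1-SE+/+ replicate 1, and without DKK1-SE+/+ replicate 3, which held the only wild-type count, no ratio can be formed. ELP4, which overlaps PAX6 on the other strand, was level between the groups (841 and 811 summed counts, log2 fold change 0.05, SE 0.16). The antisense RNA PAUPAR had 4 and 1 summed counts, and ENSG00000285283, which also overlaps, had 0. The libraries were stranded, but how the strand entered the counting is not given in the sources used here.

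PAX8 (ENSG00000125618, chr2:113215997-113278921, minus strand), the closest relative of PAX2 and PAX5, was sparse in both groups. It had 6, 2 and 6 counts in DKK1-SE+/+ libraries and 7, 7 and 3 counts in DKK1-SE-/- libraries. The groups overlapped. The ratio of edited to wild-type summed counts was 1.32 with an exact 95% interval of 0.612 to 2.89 for counting error, while mean TPM was lower in edited cells (0.283 against 0.483). Its antisense gene PAX8-AS1 was as sparse, with 6 and 15 summed counts.

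HMX3 (ENSG00000188620, chr10:123135970-123139423, plus strand), a homeobox factor of the vestibular ear, was the most abundant of these genes after FOXD1 in wild-type cells. It had 327, 265 and 304 counts in the DKK1-SE+/+ libraries and 29, 19 and 19 counts in the DKK1-SE-/- libraries. The groups were far apart and the spread within each was small. The log2 fold change was -3.61 (SE 0.22), a 12.2-fold lower level, and TPM fell from 7.75 ± 0.477 to 0.570 ± 0.180 (SD, n = 3). Unlike PAX2, HMX3 remained clearly counted in every edited library.

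HMX2 (ENSG00000188816, chr10:123148136-123150672, plus strand) starts 12.2 kb downstream of HMX3 and is its closest paralog, yet its few counts moved the opposite way. It had 1, 0 and 0 counts in wild-type libraries and 5, 6 and 1 counts in edited libraries. Wild-type replicate 1 and edited replicate 3 had the same count, so the groups touch. The ratio of summed counts was 13.0-fold with an exact 95% interval of 1.93 to 557 for counting error, and no ratio can be formed without DKK1-SE+/+ replicate 1. In edited cells HMX3 was at 0.570 TPM and HMX2 at 0.183 TPM. HMX1, on another chromosome, had 0 counts in all wild-type libraries and 4, 0 and 1 in the edited ones.

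The RefSeq promoter entries of this gene pair (GRCh38.p14, both plus strand) are shown because the neighbours differ so much in level in wild-type cells. Again CG dinucleotides are in capitals. HMX3 (chr10:123135720-123136019) holds 39 and HMX2 (chr10:123147886-123148185) holds 35, and 91.3% and 85.9% of all listed promoters hold fewer.
HMX3: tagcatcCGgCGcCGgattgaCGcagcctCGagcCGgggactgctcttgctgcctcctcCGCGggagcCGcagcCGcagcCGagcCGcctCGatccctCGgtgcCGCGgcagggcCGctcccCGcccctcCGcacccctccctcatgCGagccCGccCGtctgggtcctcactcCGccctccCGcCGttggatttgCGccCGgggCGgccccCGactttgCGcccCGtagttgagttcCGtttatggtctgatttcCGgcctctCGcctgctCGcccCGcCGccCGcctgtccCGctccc
HMX2: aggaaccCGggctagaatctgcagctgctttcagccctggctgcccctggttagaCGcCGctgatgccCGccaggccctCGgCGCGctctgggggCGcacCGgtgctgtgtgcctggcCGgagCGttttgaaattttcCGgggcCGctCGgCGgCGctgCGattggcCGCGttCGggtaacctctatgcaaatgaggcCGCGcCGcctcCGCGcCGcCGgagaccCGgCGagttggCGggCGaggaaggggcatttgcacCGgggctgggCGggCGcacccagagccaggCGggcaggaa
Both are therefore rich in CG, with 73.7% and 70.7% of bases G or C, and neither holds TGANTCA or TGTTTAC on either strand.

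FOXD1 (ENSG00000251493, chr5:73444827-73448777, minus strand), a forkhead factor of renal stroma, was the most abundant of the 9 genes in both groups. It was at 19.2, 18.4 and 24.2 TPM in DKK1-SE+/+ libraries and at 35.4, 30.5 and 37.1 TPM in DKK1-SE-/- libraries. Every edited library was above every wild-type library. The log2 fold change on counts was 0.85 (SE 0.14), inside the fold limit, and it was 0.46 with a GC-content offset, an alternative chosen after seeing the data. FOXD1-AS1, which starts 2.42 kb away and overlaps FOXD1 on the other strand, was at 10.5 TPM in wild-type and 13.4 TPM in edited cells on average (80.1 and 113 summed counts). Its log2 fold change was 0.58 (SE 0.52, adjusted p 0.408, edgeR with Benjamini-Hochberg adjustment), and it was -0.02 without DKK1-SE-/- replicate 3 and 1.15 without DKK1-SE+/+ replicate 2.

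SIX4 (ENSG00000100625, chr14:60709539-60724351, minus strand), a homeobox factor of muscle and sensory placodes, differed little. It had 160, 124 and 146 counts in wild-type libraries and 133, 179 and 214 counts in edited libraries. The raw counts overlapped, but scaled to library size every edited library was above every wild-type one. In TPM the groups overlapped, since wild-type replicate 3 (3.08) was above edited replicate 1 (2.99) and also above edited replicate 2. The means were 7.36 ± 0.288 and 9.73 ± 1.93 CPM (SD, n = 3), with a log2 fold change of 0.40 (SE 0.17) that was 0.21 without DKK1-SE-/- replicate 3.

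EYA1 (ENSG00000104313, chr8:71197433-71592025, minus strand), a phosphatase and co-activator that partners with SIX-family factors, was counted in edited libraries only. It had 0 counts in all 3 wild-type libraries and 3, 8 and 16 counts in the edited ones. Against a floor of 3 counts per library in the wild-type group, EYA1 was at least 3.16-fold higher in DKK1-SE-/- cells, and at least 1.90-fold without DKK1-SE-/- replicate 3. Its level there was still low (0.197 ± 0.163 TPM, SD, n = 3), and edited replicate 3 held most of it. The genes that overlap it, ENSG00000285579, ENSG00000254031 and TRAPPC2P2, had 2.08 counts at most when summed over a group.

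Ordered by mean TPM in DKK1-SE+/+ cells, FOXD1 (20.6) stood above HMX3 (7.75), PAX2 (6.07) and SIX4 (2.73), and the ranges of successive genes did not overlap. PAX8 (0.483) and PAX5 (0.437) came next and overlapped, and HMX2, PAX6 and EYA1 were at or near 0. In DKK1-SE-/- cells FOXD1 (34.3) and SIX4 (3.25) led without overlap. The other 7 genes, from PAX5 (0.817) down to HMX2 (0.183), each overlapped with the next in order. PAX2 and HMX3 thus stood among the highest of the 9 in wild-type cells and among these 7 in edited cells.

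**Figure D1:**
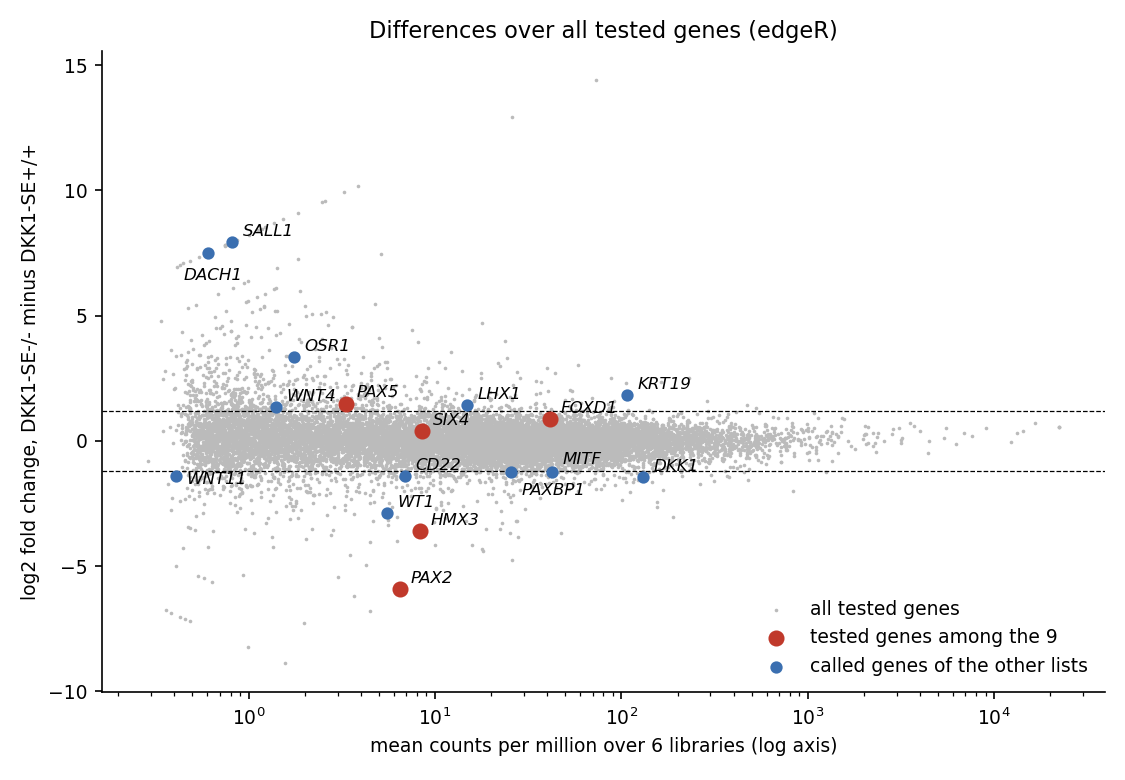
Log2 fold change (DKK1-SE-/- minus DKK1-SE+/+, edgeR) of all 15179 tested genes against their mean CPM (log axis), with dashed lines at the limits of 1.2 in either direction. PAX2 at -5.92 and HMX3 at -3.61 lie far below the bulk of genes of like level, and the fitted values of DACH1 and SALL1, at 0 in all wild-type libraries, depend on the model and are no measured fold.

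The 9 genes were set beside 94 other developmental genes in lists of relatives, partners and tissue programmes, chosen with earlier results known. Of these 33 were tested, and edgeR called 5 higher and 5 lower, against 4.96% and 3.70% of all tested genes. Their median log2 fold change was 0.09, and that of all tested genes was 0.03. With limma on log2(TPM + 1), DACH1, SALL1, LHX1, WNT4, WNT11 and PAXBP1 were no longer called. DACH1, SALL1 and OSR1, all called higher, passed the filter on low counts only through the edited libraries. WNT11, called lower, passed it only through the wild-type libraries. The calls of these genes are therefore not independent of the filter. Of the 94, 13 were at 0 in all 6 libraries. A further 10 were at 0 in every DKK1-SE+/+ library and had at least 1 count in every DKK1-SE-/- library, and 0 of the 94 showed the reverse. Over the 30813 genes taken to have a count in any library, 362 (1.17%) had the first pattern and 134 (0.435%) the reverse. This base is smaller than the number of genes above 0 in any library, since 31486 of the 62703 listed genes were at 0 in all 6. Of the 9 genes chosen from this comparison, EYA1 had the first pattern.

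Of 10 further genes of the SIX-family and of their EYA and DACH partners, 5 were tested and 1 was called (over all tested genes, 4.96% higher and 3.70% lower). DACH1, a cofactor of EYA proteins, had 0 counts in the wild-type libraries and 22, 19 and 24 counts in the edited ones. The groups were fully apart, and against the floor of 3 counts per library DACH1 was at least 7.81-fold higher. It passed the filter only through the edited libraries, so its call is a description. EYA4 (0 counts against 9, 15 and 6) was at least 3.53-fold higher by the same floor. SIX2, which maintains nephron progenitors, had 0, 2 and 0 against 16, 12 and 6 counts, a ratio of 18.5-fold (exact 95% interval 4.74 to 159). It was 11.3-fold without DKK1-SE+/+ replicate 1, and no ratio can be formed without DKK1-SE+/+ replicate 2. Of the 10 genes, 2 were at 0 in every wild-type library and counted in every edited one, as were 1.17% of the 30813 genes taken to have a count. EYA1, itself chosen from this comparison, EYA4, SIX2 and DACH1 were all counted almost only in edited cells. Abundant genes of the list did not share this: SIX5, the highest in mean TPM over all 6 libraries though below EYA3 in wild-type cells, had a log2 fold change of 0.72 (SE 0.22), EYA2 0.01 (SE 0.15) and EYA3 -0.38 (SE 0.16), none past the fold limit. EYA2, EYA3, EYA4 and SIX2 were singled out after their values were seen. SIX3 and SIX6 were at 0 in all 6 libraries.

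Of the other 5 PAX genes, PAX9 was tested and not called (log2 fold change -0.17, SE 0.37, unadjusted p above 0.05, and not called by DESeq2). PAX3, a neural crest and muscle factor, had 0 counts in wild-type libraries and 6, 12 and 3 in edited ones, at least 2.45-fold higher by the floor of 3 counts per library. PAX7 had 0 counts against 2, 1 and 1, too few for a fold. PAX1 and PAX4 were at 0 in all 6 libraries. PAX genes thus did not share a direction. PAX3 and PAX7 were also named after their values were seen. Of 3 further FOXD genes FOXD2 was tested and not called by edgeR or DESeq2, with a log2 fold change of -0.28 (SE 0.44).

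Of the 17 genes of the nephric and kidney list, 11 were tested, the most of any list. EdgeR called 4 higher and 2 lower, where 4.96% and 3.70% of all tested genes were called. The median log2 fold change was 0.89 (unchanged with SALL1 at its lower bound), and it was 0.03 over all tested genes. WT1, the zinc-finger factor of nephron progenitors and podocytes, fell from 209, 165 and 194 counts in DKK1-SE+/+ libraries to 18, 22 and 30 in DKK1-SE-/- libraries. Its log2 fold change was -2.90 (SE 0.21, edgeR adjusted p 4.25e-06), so WT1 went down together with PAX2. SALL1, a progenitor factor, had 0 counts in every wild-type library and 26, 30 and 32 in the edited ones. It was at least 10.5-fold higher by the floor of 3 counts per library. SALL1 passed the filter only through the edited libraries, so its call is a description. OSR1, the earliest marker of intermediate mesoderm, had 2, 0 and 16 counts against 61, 78 and 34. Its log2 fold change was 3.35 (SE 0.71) and was 5.81 without DKK1-SE+/+ replicate 3, which held most of the wild-type counts. OSR1 also passed the filter only through the edited libraries.

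LHX1, a homeobox factor of the nephric duct and the most abundant gene on this list in edited cells, rose from 5.68 ± 0.319 to 13.1 ± 0.777 TPM (SD, n = 3). Its log2 fold change was 1.44 (SE 0.17, edgeR adjusted p 9.34e-05), and it missed the fold limit in the fits of TPM, narrowly with 0.1 added and at 1.08 with 1 added. WNT4, which drives tubule formation, had a log2 fold change of 1.34 (SE 0.32, edgeR adjusted p 0.00737), and 1.09 with the GC-content offset, where it was not called. WNT4 lay outside the rule for named genes and was chosen after its values were seen. WNT11, a ureteric tip ligand, was called lower on few reads (14, 10 and 11 against 2, 5 and 5 counts, log2 fold change -1.40, SE 0.48). It passed the filter only through the wild-type libraries. It was not called by DESeq2 (-1.45) or without DKK1-SE-/- replicate 1 (-1.16). The list did not move in a single direction: WT1 and WNT11 were lower while OSR1, SALL1, LHX1 and WNT4 were higher.

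These factors also mark differentiated cell types, so the defining genes of those types were examined for the whole lists. Of 8 thyroid genes, 1 (HHEX) was tested, TG and TSHR had at most 3 counts in any library, and SLC5A5 had 12 and 5 counts summed over the wild-type and edited libraries. The thyroid factors NKX2-1 and FOXE1 had 0 counts in the wild-type and 10 and 6 summed counts in the edited libraries. The 8 thyroid genes summed to 6.59, 7.71 and 6.80 TPM in wild-type and 4.65, 3.25 and 4.36 TPM in edited libraries. Most of this came from HHEX. Of 16 pancreatic endocrine genes, 1 (ISL1) was tested, INS, SST, NEUROD1 and NEUROG3 were at 0 in all 6 libraries, and GCG had 2 counts in 1 wild-type library. CHGA and NKX2-2 had 0 counts in the wild-type and 3 and 11 summed counts in the edited libraries. The endocrine sum was 0.45, 0.70 and 1.08 TPM against 1.22, 1.05 and 1.24 TPM, so the counts of PAX6 came without counts of islet hormones. ISL1, the most abundant of them, had a log2 fold change of 0.12 (SE 0.41).

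Of 10 B-lymphocyte genes, 1 (CD22) was tested, and MS4A1 was at 0 in all 6 libraries. CD79A and CD79B had at most 5 counts in any library. The sum of the list was 10.3, 10.4 and 6.42 TPM against 2.85, 4.11 and 4.42 TPM, and the most abundant gene was CD22, a sialic-acid-binding lectin (8.73 and 3.04 TPM on average). In DKK1-SE-/- replicate 2, POU2AF1 gave 1.12 TPM of the sum. CD22 fell, with a log2 fold change of -1.41 (SE 0.16, edgeR adjusted p 9.70e-05). The higher PAX5 counts of edited cells therefore stood beside MS4A1, CD79A and CD79B at or near 0. Of the kidney end-stage markers, CDH16 was at 0 in all 6 libraries, and NPHS1, with 7 to 14 counts in each library, had a log2 fold change of 0.16 (SE 0.45). The nephric list summed to 21.0, 21.0 and 24.8 TPM in wild-type and 29.3, 24.7 and 29.3 TPM in edited libraries. What part other cell types had in these values was not tested.

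Of 11 eye and otic placode genes, 3 were tested and 1 was called, where 4.96% of all tested genes were called higher and 3.70% lower. MITF, which PAX proteins control in pigment cells, fell from 25.8 ± 1.61 to 8.74 ± 1.62 TPM (SD, n = 3). Its log2 fold change was -1.24 (SE 0.14, edgeR adjusted p 1.00e-04), close to the limit, and it was inside it without DKK1-SE-/- replicate 1 (-1.15) or 2 (-1.19) and with the GC-content offset (-1.01). TBX1, an otic factor and the most abundant gene on the list over all 6 libraries (in wild-type cells MITF was slightly higher), had a log2 fold change of 0.04 (SE 0.15), which was -0.03 with library size alone and -0.43 with the GC-content offset. Of the 9 homeobox genes of chromosome arm 10q, the arm that carries PAX2 and the HMX pair, 2 were tested and edgeR and DESeq2 called 0 of them, although both had an unadjusted p under 0.05, as did 7335 of all 15179 tested genes. HHEX, the most abundant, had a log2 fold change of -0.85 (SE 0.19, edgeR adjusted p 0.00531). VAX1, the other tested gene, had -1.03 (SE 0.42), so both values were negative. Of those not tested, NKX6-2 had 32 and 6 summed counts in wild-type and edited libraries, and LBX1 had 0 and 6. VAX1, NKX6-2 and LBX1 were named after their values were seen.

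The 8 cofactors that bind PAX proteins were all tested. Of these, 3 had an unadjusted p under 0.05 in edgeR, as did 7335 of all 15179 tested genes. PAXBP1, which links PAX3 and PAX7 to histone methylation, was the 1 called gene (3.70% of all tested genes were called lower), at 15.6 ± 1.05 TPM in wild-type and 7.08 ± 0.499 TPM in edited cells (SD, n = 3). Its log2 fold change was -1.24 (SE 0.16, edgeR adjusted p 1.64e-04), and it was -1.11 without DKK1-SE-/- replicate 1, -0.99 with the GC-content offset and -1.13 on log2(TPM + 0.1), where it was not called. DAXX, the most abundant, had a log2 fold change of 0.43 (SE 0.11). The co-repressor TLE4 had 0.96 (SE 0.15) and the methyltransferase KMT2D 0.09 (SE 0.11), both named after their values were seen.

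Genes beside the 9 on their chromosomes were compared next, to see whether they differed in the same direction. Within 1 Mb of a start there were 103 other tested genes, of which edgeR called 4 higher and 7 lower, with a median log2 fold change of -0.23. Of all tested genes, 4.96% were called higher and 3.70% lower. Around PAX2, 23 of 24 neighbours had a negative log2 fold change (median -0.44), and 3 were called lower. These were SCD, a fatty acid desaturase 388 kb away (-1.99, SE 0.10), SLF2, a genome stability factor 178 kb away (-1.37, SE 0.15), and SEMA4G, a semaphorin 234 kb away (-1.43, SE 0.21). SLF2 and NDUFB8 (205 kb, -0.34, SE 0.20) were the nearest tested genes on either side. None of the 24 approached the -5.92 of PAX2.

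All 11 tested neighbours of HMX3 and HMX2 had a negative log2 fold change (median -0.65). EdgeR called 0 of them, although 8 had an unadjusted p under 0.05, as did 7335 of the 15179 tested genes, and DESeq2 called 1. The nearest were BUB3, a spindle checkpoint gene 18.4 kb from the start of HMX3 and 6.27 kb from that of HMX2 (-0.82, SE 0.12), and ACADSB, an acyl-CoA dehydrogenase gene 127 kb from HMX3, which was only just inside the fold limit (SE 0.16). The difference of HMX3 itself was -3.61. Over all 586 other tested genes of chromosome 10 the median was -0.32 and 397 were negative, so lower values were common on this chromosome as a whole.

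Around PAX8, 14 of 17 neighbours had a negative log2 fold change (median -0.46), and around SIX4 10 of 11 (median -0.27), so this was not limited to genes that fell. The numbers were 5 of 8 around PAX6 (median -0.22) and FOXD1 (-0.09), 9 of 20 around PAX5 (0.02) and 0 of 4 around EYA1 (0.66), and 7267 of all 15179 tested genes (47.9%) were negative. WT1 starts 618 kb from PAX6, and it and its antisense RNA WT1-AS (-2.88, SE 0.54) were called lower while PAX6 gained counts. RCN1, 273 kb from PAX6 on the same side, had 0.11 (SE 0.10). MNAT1, 10.4 kb from SIX4, had -0.45 (SE 0.20) against 0.40 for SIX4. PRKCH, a protein kinase C gene 463 kb from SIX4, was called higher (2.23, SE 0.21). Around PAX5, 1 of 20 was called, GLIPR2 (1.49, SE 0.18) at 898 kb. The nearest tested gene on each side, EBLN3P at 45.4 kb and MELK at 461 kb, had -0.07 (SE 0.14) and -0.04 (SE 0.12). On the side of EBLN3P other tested genes were also closer than MELK, such as ZCCHC7 at 86.3 kb (-0.30, SE 0.15).

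TMEM171, 328 kb from FOXD1, was called higher (2.54, SE 0.42), and BTF3 at 49.6 kb had -0.22 (SE 0.09). XKR9, 923 kb from EYA1, was called higher on few reads (1.79, SE 0.58), and TRPA1, at 484 kb on the other side, had 0.98 (SE 0.17). Around PAX8, SLC20A1, a phosphate transporter (-1.24, SE 0.11), and RGPD8 (-1.31, SE 0.27) were called lower. RGPD8 has near-identical copies, so its counts are uncertain. The nearest to PAX8, PSD4 at 122 kb and CBWD2 at 159 kb, had 0.35 (SE 0.23) and -0.22 (SE 0.14).

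The genes whose levels followed PAX2 and HMX3 most closely over the 6 libraries were sought by Pearson's r of log2(CPM + 1). For PAX2 these were COL1A1, the collagen I chain (r = 1.000, log2 fold change -3.06, SE 0.12), LTBP2, a matrix protein (0.999, -1.96, SE 0.10), and SARAF, a regulator of calcium entry (0.999, -1.11, SE 0.10). For HMX3 they were MAP7, a microtubule protein (0.999, -3.53, SE 0.17), PADI2, a peptidyl arginine deiminase (0.999, -1.92, SE 0.13), and MMP14, a membrane metalloprotease (0.999, -3.76, SE 0.31). With 161 genes at r of at least 0.99 for PAX2 and 134 for HMX3, these values mostly restate that 3 libraries are high and 3 are low.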

How the data were processed

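Stranded mRNA libraries of PANC-1 cells, 3 DKK1-SE-/- and 3 DKK1-SE+/+, were sequenced and analysed by a company for the authors. The submitters' processing notes name the build hg38, and the aligner, counting program and annotation are not given in the sources used here. The authors deposited an expected count per gene and library (estimated, not normalized, 32.3% of nonzero values not whole) and TPM, which they normalized within each library. Columns of the deposited table with the authors' fold ratio, log2 fold change, p-value and adjusted p-value for the same comparison, and the mean TPM of each group, were not used. The 9 genes and all gene lists were chosen with earlier results of these data known.

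Rounded expected counts entered edgeR 4.0.16 (R 4.3.3), with filterByExpr (minimum count 10), TMM and the quasi-likelihood F test without covariates. Benjamini-Hochberg adjustment was over 15179 genes. The SE was the absolute log2 fold change divided by the square root of F. The study gives limits of p under 0.05 and fold change 1.2, applied here to log2. Positions of 62625 identifiers (99.9%) came from GENCODE version 44 and promoters from a RefSeq table (GRCh38.p14), which as supplied here has entries for 8 of the 9 genes. Ratios of sparse genes used summed counts per TMM-normalized library with exact (Clopper-Pearson) 95% intervals, and folds against 0 used 3 counts per library. Alternatives were DESeq2 1.42.0, RLE factors, library size alone, no filter, a replicate block, limma 3.58.1 with a trend on TPM, other limits, a 0.5 Mb distance, each library left out, and a GC-content offset in 40 bins, which was chosen after seeing the data. Exact tests used scipy 1.17.1 in Python 3.11.15. The fits were tested on simulated data. Named genes were the 9 and DKK1, the called genes of each list (5 with the largest change where more) and its most abundant gene, the nearest neighbours with at least 10 counts on average in a group and the called neighbours, the 3 genes most like PAX2 and HMX3, and genes that overlap the 9. Not every gene within this rule is reported.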

Additional observations from a re-analysis of the deposited data

How the results depend on the processing

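DKK1 stayed lower and called under every alternative, with log2 fold changes from -1.55 to -1.32 and from -1.53 to -1.42 with each library left out. PAX2 and HMX3 kept their direction in all fits, from -6.28 to -2.46 and from -3.93 to -2.48. Without the filter on low counts, 1617 genes were called higher, 873 lower, 6 of the 9 (EYA1, HMX2 and PAX6 were added) and 17 listed genes higher, since more genes were then tested. On log2(TPM + 1), 174 genes were called higher, 338 lower, 1 listed gene higher and 3 lower, and 1 neighbour higher and 3 lower, and this fit changes the unit, the method and the added constant together. With the limit of 1.2 on the linear fold, 3696 were called higher, 3531 lower, 5 of the 9, 11 listed genes higher and 9 lower, and 10 neighbours higher and 37 lower. With the GC-content offset, chosen after seeing the data, 3 listed genes were called lower, with or without the replicate block, and the cause was not tested. Within 0.5 Mb, 2 neighbours were called higher and 3 lower. With each library left out, 786 to 922 genes were called higher and 563 to 846 lower, with 3 to 4 of the 9 (PAX6 passed the filter and was added without DKK1-SE+/+ replicate 2 or DKK1-SE-/- replicate 1), 5 to 7 listed genes higher and 4 to 6 lower, and 3 to 5 neighbours higher and 6 to 9 lower. With the replicate number as a block (replicate block), 772 genes were called higher and 598 lower, 1302 of the 1314 calls were kept, and the log2 fold change of DKK1 was -1.45. The numbers do not pair libraries, since deviations from the group mean in same-numbered libraries had r of -0.123, -0.0738 and -0.109. Depth limits PAX6, PAX8, HMX2 and EYA1, whose counts per library did not exceed 16.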
